A study of Mus musculus with 24 samples.

Results

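The potassium channel family was followed here in the developing mouse retina. Its members were all probe sets of the deposited table whose single gene symbol in the platform annotation starts with Kcn, with the glial inward rectifier gene Kcnj10 left out. The rule gave 89 probe sets of 61 genes, among 22690 probe sets of the table and 12393 named genes. Of these, 47 probe sets of 36 genes passed the filter on low values and were tested. The other 42 were too dim, and 15 of them lay at the floor, the lowest signal that was told apart, on all 24 arrays. The 25 genes without a passing probe set included Kcnj2, a strong inward rectifier, whose probe set was at the floor on all 24 arrays, and Kcnq1, Kcnn4, Kcna3 and Kcnj11.

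Total RNA from the retina of C57Bl/6 mouse pups was hybridised to 24 oligonucleotide arrays, with 3 arrays in each of 8 groups. The groups in room air were taken at postnatal days 7, 8, 10 and 12. The groups in hyperoxia were taken at the same days after 12, 24, 72 and 120 hours of exposure, so age and length of exposure cannot be told apart in them. No allele or drug is named for any group, and neither the oxygen level nor the number of pups behind an array is stated. Nothing in the labels says that the 3 arrays of a group came from separate animals, so p-values cover the spread among these arrays, which could be technical. The array medians of the deposited intensity lay between 570.1 and 679.7. Markers of the retina were present throughout: the summed signal of 12 photoreceptor genes was at least 171468.6 on every array. The summed signal of 14 lens genes ranged from 2255 to 274457.1 among the arrays of room air at day 12 alone, and it also varied widely in 6 of the other groups. The 2 arrays farthest from their groups were replicate 1 of room air at day 8 and replicate 2 of hyperoxia at day 12.

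Potassium channels are membrane proteins that let potassium leave or enter a cell and so set its resting potential and shape its responses. Voltage-gated channels open on depolarisation, inward rectifiers and two-pore channels hold the resting potential, calcium-activated channels link calcium entry to potassium current, and auxiliary subunits control the assembly, surface level and gating of the pore-forming subunits. In rods, cones and retinal interneurons these currents shape the light response. In vessels, the ATP-sensitive channel of pericytes and smooth muscle cells contributes to vessel tone. In the mouse, the period studied covers the last cell divisions in the retina, the growth of photoreceptor outer segments and the days before eye opening.

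Part of the family rose between day 7 and day 12 in room air, and most of its tested probe sets were not called. In the limma fit over all arrays, 16 member probe sets of 13 genes rose from day 7 to day 12 and 0 fell, at a Benjamini-Hochberg adjusted p under 0.05. These 16 were 34% of the 47 tested and 18% of all 89 members. Over all 15838 probe sets tested, 7.16% rose and 5.21% fell. The median difference was 0.42 on the log2 scale over the 47 members and -0.03 over all probe sets tested. Because a probe set that is dim at day 7 can pass the filter through its level at day 12, the members were also fitted with no filter: 17 of 89 rose and 1 fell, against 5.12% of 22626 probe sets that rose. With no filter the median was 0.05 over the 89 members and 0 over all probe sets, since many members lay at the floor. The fall, of Kcnk5, a two-pore channel gene, was 0.31 on the log2 scale and lay just above the floor.

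By subfamily, the tested auxiliary subunits rose at 6 of 18 probe sets, the voltage-gated pore-forming subunits at 6 of 14, the two-pore channels at 3 of 5, the inward rectifiers at 1 of 6 and the calcium- or sodium-activated channels at 0 of 4. The median difference was 0.52 for the auxiliary subunits, 0.36 for the voltage-gated subunits, 0.60 for the two-pore channels, 0.47 for the inward rectifiers and 0.11 for the calcium- or sodium-activated channels. Over all measured probe sets of each subfamily, with no filter, the medians were 0.30, 0.06, 0.01, 0 and 0.06, in the same order.

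**Figure D1:**
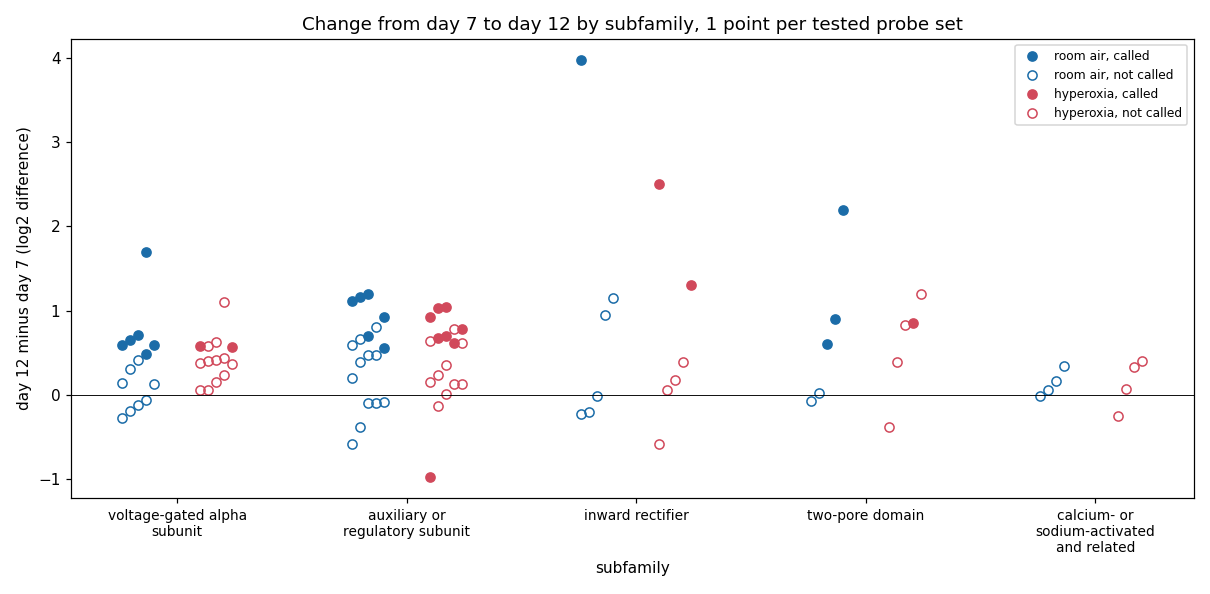
Log2 difference between day 12 and day 7 for each of the 47 tested potassium channel family probe sets (vertical axis), by subfamily (horizontal axis), in room air and in hyperoxia; filled points were called. The highest point in each condition is Kcnj14, at 3.98 in room air and 2.51 in hyperoxia, and the single filled point below 0 is Kcne1l in hyperoxia.

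Promoters were read from RefSeq (assembly GRCm38.p6) for 49 of the 61 member genes, as the 250 bases before a transcription start. The genes without a promoter here included Kcnj14, Kcnk3 and Kcna1, which had the largest called rises in room air. The shares below do not cover them. They were searched on both strands for TAATCC (reverse GGATTA), the core bound by the photoreceptor factors Crx and Otx2, and for TGCTGA (reverse TCAGCA), the core of the element bound by the rod factor Nrl; neither motif contains the other. TAATCC was found in 1 of 67 member promoters (1.49%) and in 6.25% of 32851 promoters of all genes. TGCTGA was found in 7 of 67 member promoters (10.4%) and in 16.1% of all. Neither share was above that over all genes, and a match in this window is no evidence of binding. The 4 promoters below show examples of genes that rose in at least 1 of the 2 conditions, each 5′ to 3′ on the strand of its gene with matches in capitals. Most of these 4 hold a match, unlike most member promoters, so they do not stand for the family. The promoter of Kcne2 at chr16:92292139-92292388 (plus strand) holds neither motif. A promoter of Kcnab2 at chr4:152477550-152477799 (minus strand) holds TGCTGA 1 time, as the reverse. One of Kcnip1 at chr11:33993194-33993443 (minus strand) holds it 2 times, and that of Kcnj9 at chr1:172329323-172329572 (minus strand) is the member promoter with TAATCC, also as the reverse. The other promoters read for Kcnab2 and Kcnip1 hold neither motif.
Kcne2: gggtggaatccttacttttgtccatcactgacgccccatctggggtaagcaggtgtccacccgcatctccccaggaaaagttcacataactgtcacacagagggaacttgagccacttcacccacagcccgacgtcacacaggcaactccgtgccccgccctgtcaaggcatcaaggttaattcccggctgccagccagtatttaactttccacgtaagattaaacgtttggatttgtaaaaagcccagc
Kcnab2: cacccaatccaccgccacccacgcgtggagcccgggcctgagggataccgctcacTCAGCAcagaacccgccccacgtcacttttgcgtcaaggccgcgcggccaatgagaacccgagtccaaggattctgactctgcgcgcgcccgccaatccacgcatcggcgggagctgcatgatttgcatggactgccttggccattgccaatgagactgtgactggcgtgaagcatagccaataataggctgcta
Kcnip1: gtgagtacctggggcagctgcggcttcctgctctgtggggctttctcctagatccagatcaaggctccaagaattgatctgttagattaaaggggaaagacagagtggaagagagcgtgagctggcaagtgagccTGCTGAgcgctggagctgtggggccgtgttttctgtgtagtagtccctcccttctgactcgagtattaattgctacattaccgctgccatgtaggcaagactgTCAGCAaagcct
Kcnj9: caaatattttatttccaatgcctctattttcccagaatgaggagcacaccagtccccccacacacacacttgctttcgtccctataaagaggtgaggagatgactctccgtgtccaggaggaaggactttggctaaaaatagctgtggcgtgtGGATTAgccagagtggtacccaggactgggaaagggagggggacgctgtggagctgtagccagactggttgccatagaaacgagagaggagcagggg

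Kcnj14 (probe set 1452243_at), which encodes an inward rectifier channel, had the largest difference of any tested member between day 12 and day 7 in room air. Its log2 intensity in room air was 7.27, 8.12 and 7.43 on the 3 arrays of day 7 and 7.82, 8.43 and 7.50 on those of day 8. It was 9.25, 9.77 and 10.06 at day 10 and 10.94, 12.01 and 11.80 at day 12. The arrays of days 7 and 8 overlapped, every array of day 10 lay above both, and every array of day 12 lay above day 10. From day 7 to day 12 the signal rose 15.8-fold, a log2 difference of 3.98 ± 0.30 (standard error of the limma fit, adjusted p = 9.18e-08).

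Nearly all of the rise of Kcnj14 in room air came after day 8. Its log2 difference was 0.31 ± 0.30 between days 7 and 8 (adjusted p = 0.982), 1.78 ± 0.30 between days 8 and 10 (adjusted p = 0.00576) and 1.89 ± 0.30 between days 10 and 12 (adjusted p = 0.0267). It was the single member called in each of the last 2 steps. Between days 8 and 10, 0.783% of all probe sets tested rose and 0.271% fell; between days 10 and 12, 0.0189% rose and 0.00631% fell. Between days 7 and 8 no member was called and 0% of all probe sets were, while 2 members and 789 probe sets had an unadjusted p under 0.05. With the deposited scaling in place of quantile normalization, 124 probe sets rose and 86 fell between days 8 and 10, against 124 and 43. With the replicate number as a block, Kcnab2 (0.60 ± 0.12, adjusted p = 0.0173) and Kcne2 (0.67 ± 0.16, adjusted p = 0.0431) were called there too, 3 members in all. The step from day 8 to day 10 was not called without replicate 3 of room air at day 8 (1.57, adjusted p = 0.058), and 3 members were called without replicate 2 of room air at day 8. The step from day 10 to day 12 was not called without replicate 1, 2 or 3 of room air at day 10 (1.67, 1.92 and 2.07), or without replicate 2 or 3 of room air at day 12 (1.68 and 1.78), with adjusted p between 0.0597 and 0.183.

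At their tested probe sets, Kcnj8, the pore subunit of the ATP-sensitive channel of pericytes, and Kcnj9, a G-protein-gated rectifier subunit, did not pass in room air. Kcnj8 differed by 1.16 ± 0.41 between days 12 and 7 (adjusted p = 0.0727), with 7.10, 8.18 and 7.53 at day 7 and 9.26, 8.35 and 8.66 at day 12, where 7.10 is the floor. All arrays of day 12 lay above those of day 7, and without replicate 2 of room air at day 7 the difference was 1.45 (adjusted p = 0.0424). Kcnj9 differed by 0.95 ± 0.38 (adjusted p = 0.116) at 1450712_at, and without the same array by 1.39 (adjusted p = 0.0204). In the limma fit with no filter, its dim probe set 1426115_a_at was called, at 0.44 ± 0.12 (adjusted p = 0.0255). That probe set was at the floor on 16 of the 24 arrays. The remaining tested rectifier genes, Kcnj3 and Kcnj6, which encode further G-protein-gated subunits, differed by -0.01 and, at its 2 probe sets, by -0.20 and -0.23.

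Among the two-pore channels, which carry background potassium current, Kcnk3 rose at its tested probe set, 1425341_at, and so did both probe sets of Kcnk1. Kcnk3, an acid-sensitive background channel, was at 8.32, 7.76 and 7.10 in room air at day 7 and at 10.22, 9.71 and 9.83 at day 12. The day 12 arrays lay above all day 7 arrays, with a difference of 2.20 ± 0.40 (4.58-fold, adjusted p = 0.000937). The day 8 arrays, at 8.43, 9.86 and 9.46, lay above those of day 7 too, and the day 10 arrays, at 10.21, 9.92 and 9.70, spanned much the same range as day 12. The step from day 7 to day 8 was 1.53 ± 0.40 and was not called (adjusted p = 0.701). Other Kcnk3 probe sets did not pass the filter. In the limma fit with no filter, 1425342_a_at differed by 0.24 ± 0.22 between days 12 and 7 (adjusted p = 0.675). It was at the floor on 15 arrays, and 1426058_a_at was at the floor on all 24. Kcnk1, a weakly inwardly rectifying background channel, rose by 0.90 ± 0.16 (adjusted p = 0.000695) at its probe set 1455896_a_at, from 8.48, 8.54 and 8.65 to 9.43, 9.67 and 9.24. Its other probe set, 1448690_at, rose by 0.60 ± 0.17 (adjusted p = 0.0262), a call that was lost without replicate 1 of room air at day 7 or replicate 1 or 2 of room air at day 12. Kcnk2 and Kcnk4, mechanically gated members of the group, differed by -0.07 and 0.02 and were not called.

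Of the voltage-gated pore-forming genes, 5 rose in room air. Kcna1, a delayed rectifier of axons, went from 8.63, 8.13 and 7.10 at day 7 to 10.23, 9.55 and 9.18 at day 12, a difference of 1.70 ± 0.48 (3.25-fold, adjusted p = 0.024). Its groups did not overlap, but the call was lost without replicate 3 of room air at day 7 (1.28, adjusted p = 0.15) and without replicate 1 or 2 of room air at day 12 (adjusted p = 0.109 and 0.0554), and with no filter it narrowly missed the threshold (adjusted p = 0.0503). Kcnd2, which carries transient A-type current, rose at 2 of its 3 probe sets, by 0.71 ± 0.16 (adjusted p = 0.00549) and 0.66 ± 0.16 (adjusted p = 0.00933); the third differed by 0.42 ± 0.17 (adjusted p = 0.119). At the first of these, 1422834_at, the arrays were at 8.33, 7.99 and 7.85 at day 7 and at 8.76, 8.66 and 8.89 at day 12, without overlap.

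Kcnc1, whose channel allows fast repeated firing, rose by 0.59 ± 0.18 (adjusted p = 0.0332), from 10.15, 10.63 and 10.79 to 11.09, 11.24 and 11.03. That call was lost without replicate 1 of room air at day 7 (0.41, adjusted p = 0.172) and without any 1 of the 3 room air arrays of day 12 (0.53 to 0.64). Kcnh2, of the ether-a-go-go group, rose by 0.59 ± 0.14 (adjusted p = 0.00933), from 10.44, 10.62 and 10.54 to 11.31, 11.21 and 10.86; without replicate 1 of room air at day 12 it differed by 0.50 (adjusted p = 0.0518). The fifth gene was Kcna5, a delayed rectifier, at 0.48 ± 0.15 (adjusted p = 0.0379); it stands outside the 12 largest rises and completes the 13 genes. Kcna2, Kcna4, Kcna6, Kcna7, Kcnd1, Kcnh1 and Kcns2 were tested and not called, with differences between -0.28 (Kcns2) and 0.31 (Kcnh1).

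Auxiliary subunits gave 5 of the 13 genes. Kcne2, a single-pass partner of several voltage-gated channels, was at 10.48, 10.75 and 10.38 at day 7 and at 11.68, 11.66 and 11.86 at day 12, a rise of 1.20 ± 0.18 (2.30-fold, adjusted p = 0.000163). Kcnab2, a cytoplasmic beta subunit of the Kcna channels, rose by 1.17 ± 0.16 (2.25-fold, adjusted p = 4.5e-05) at probe set 1416956_at, from 10.50, 11.14 and 10.60 to 11.88, 11.96 and 11.90. Neither gene's day 12 arrays overlapped those of day 7. The second probe set of Kcnab2, 1425885_a_at, differed by 0.66 ± 0.37 and was not called (adjusted p = 0.278). Kcnab1, the related beta subunit, rose at both probe sets, by 0.56 ± 0.10 (adjusted p = 0.00116) and 0.92 ± 0.24 (adjusted p = 0.0149).

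Kcnip1 and Kcnip2 encode calcium-binding proteins that partner the A-type channels. Kcnip1 rose by 0.70 ± 0.19 (adjusted p = 0.0209) at 1416785_at, from 10.53, 10.59 and 10.36 to 10.90, 11.45 and 11.22, while its second probe set differed by 0.59 ± 0.22 (adjusted p = 0.0837). The Kcnip1 call was lost without replicate 3 of room air at day 7 or replicate 2 or 3 of room air at day 12, with differences of 0.63, 0.57 and 0.68. The 2 probe sets of Kcnip2 differed in sign: 1425870_a_at rose by 1.11 ± 0.28 (2.16-fold, adjusted p = 0.0124), from 7.18, 7.47 and 8.00 to 7.90, 9.26 and 8.84, with overlap between the days, and 1421783_a_at differed by -0.39 ± 0.24 (adjusted p = 0.334). The Kcnip2 call was lost without replicate 1 of room air at day 7 (0.93) or without replicate 2 or 3 of room air at day 12 (0.82 and 1.02). Kcne1l, another single-pass subunit, differed by -0.59 ± 0.21 in room air and was not called (adjusted p = 0.0696).

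The calcium-activated channels stayed without a call. Kcnma1, the pore of the large-conductance channel, was at 11.11, 10.72 and 10.91 at day 7 at its tested probe set, 1425987_a_at. At day 12 it was at 11.13, 11.25 and 11.40, a difference of 0.35 ± 0.18 (adjusted p = 0.242). Its other probe set, 1424848_at, did not pass the filter. In the limma fit with no filter that probe set differed by 0.68 ± 0.27 (adjusted p = 0.138). The small-conductance genes Kcnn1, at 2 probe sets, and Kcnn2 differed by 0.06, -0.01 and 0.17. The beta subunits of the large-conductance channel, Kcnmb1, Kcnmb2 and Kcnmb4, differed by between -0.10 and 0.20.

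**Figure D2:**
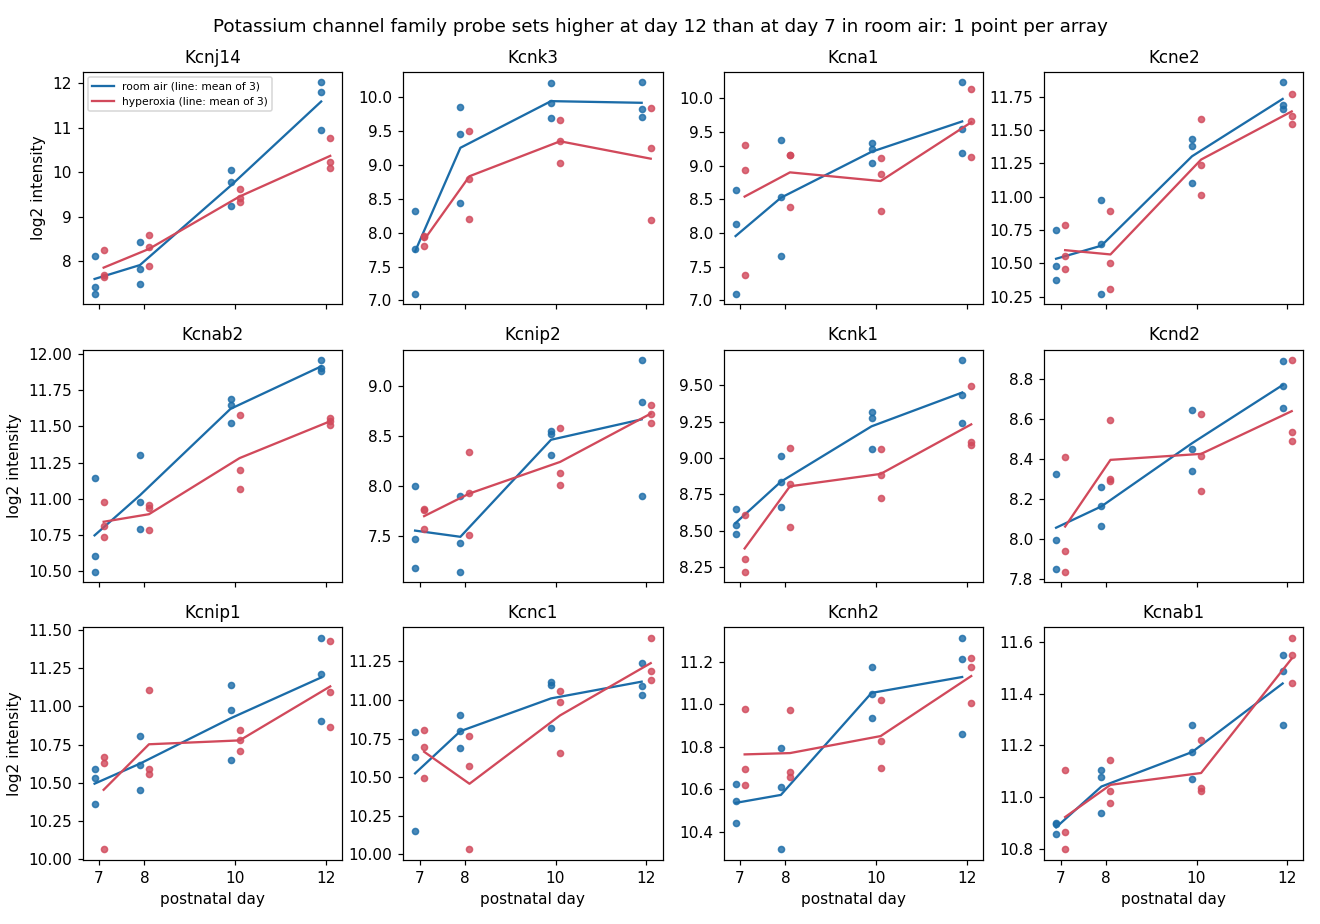
Log2 intensity (vertical axes, each with its own range) by postnatal day (horizontal axes) for the 12 genes with the largest called rises between day 7 and day 12 in room air; each point is 1 array and each line joins the means of 3 arrays, in room air and in hyperoxia. In room air at day 12 the Kcnj14 arrays sit between 10.94 and 12.01, above all 3 hyperoxia arrays, while for Kcne2, Kcnc1 and Kcnab1 the conditions overlap.

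Over the steps, 16 of the 47 tested members had room air means that increased at every step and 1 had means that decreased at every step; over all probe sets tested, 11.5% increased at every step and 12.1% decreased. In hyperoxia 19 members increased at every step and 1 decreased, against 10.3% and 11.9% of all probe sets tested. The highest of the 4 means was that of day 12 for 26 members in room air, where it was so for 25.8% of all probe sets, and for 36 members in hyperoxia, against 30.4% of all.

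The count of 16 depended on single arrays: it was 9 without replicate 2 of room air at day 12, and between 9 and 18 over all arrays left out. Without that replicate, 804 of all probe sets tested rose and 589 fell, against 1134 and 825 with all arrays. Fitted with the arrays of days 7 and 12 in room air alone, 9 of the 16 were called, with Kcne1l called lower beside them. Over all probe sets tested, 590 rose and 333 fell in that fit. Markers of several retinal cell types moved over the same days. Of the tested markers in room air, 6 of 12 photoreceptor genes, 3 of 6 bipolar, 3 of 6 Müller glia, 3 of 6 ganglion cell, 1 of 6 amacrine, 1 of 3 horizontal, 2 of 9 endothelial, 2 of 4 pericyte and 0 of 6 microglial genes rose and 0 fell, and all 4 progenitor genes fell. The summed signal of the photoreceptor list went from between 173769.3 and 197761.3 at day 7 to between 241072.9 and 252518.1 at day 12, and that of the Müller list from between 23032.3 and 25684.8 to between 39379.4 and 44821.9. Fewer cells of a type and less RNA per cell cannot be told apart in these tissue arrays, and the part of cell composition in the members' differences was not tested. Of the pigment epithelium genes 1 of 7 rose (summed signal 5777.9 to 21400.8 at day 7 and 18929.9 to 34714.1 at day 12) and of the lens genes 0 of 14. With the lens and pigment epithelium scores as covariates, 8 of the 16 were called: Kcnj14 (3.62), Kcnk3 (2.24), Kcna1 (2.13), Kcne2 (1.19), Kcnab2 (1.00), and 1 probe set each of Kcnd2 (0.80), Kcnk1 (0.76) and Kcnab1 (0.54). Over all probe sets tested, 704 rose and 487 fell with these covariates, against 1134 and 825 without them. The member median was 0.48 with them and 0.42 without.

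Other ion transport genes were set beside the family in room air. Of their tested probe sets, 2 of 6 for sodium channels, 4 of 19 for calcium channels, 6 of 21 for potassium transporters and pumps and 5 of 19 for channel partners rose and 0 fell. Of 5 for the cyclic nucleotide-gated and pacemaker channels, 2 rose and 2 fell. The sodium channel gene Scn1a rose at both probe sets, by 1.92 ± 0.20 and 1.33 ± 0.20 (adjusted p = 2.64e-06 and 0.000153). The rod cation channel gene Cnga1 rose by 1.48 ± 0.15 (adjusted p = 2.64e-06), and the cone channel gene Cngb3 fell by 0.38 ± 0.12 in log2 units (adjusted p = 0.0444). The chloride exporter Slc12a5, which couples chloride to potassium, rose by 0.78 ± 0.12 (adjusted p = 0.000137) at 1 of its 2 probe sets. The medians of the 5 lists lay between 0.22 and 0.37 against -0.03 over all probe sets tested.

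In hyperoxia, 12 member probe sets of 11 genes rose from day 7 to day 12 and 1 fell. Over all probe sets tested, 5.95% rose and 6.64% fell. The median over the 47 members was 0.40, against -0.03 over all. With no filter, 10 of 89 members rose and 1 fell, against 4.18% and 4.83% of 22626 probe sets. The median was then 0.16 over the 89 members and 0 over all probe sets. The room air and hyperoxia differences come from separate arrays, with 1 common estimate of the spread. They shared 10 called probe sets of 9 genes, which is 62.5% of the room air list and 83.3% of the hyperoxia list. All 16 probe sets called in room air had a positive difference in hyperoxia. The room air difference was the larger one in 15 of these 16, which were chosen for it, and the smaller one in 3 of the 12 called higher in hyperoxia. Over all 47 members the hyperoxia difference was the smaller one in 28. Of the 47 members, 38 differed with the same sign, and the correlation of the 2 differences across the 47 probe sets, which share genes and arrays, was 0.84 (Pearson). The shared calls, signs and correlation were not worked out over all probe sets tested. Whether they are particular to the family was therefore not tested.

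**Figure D3:**
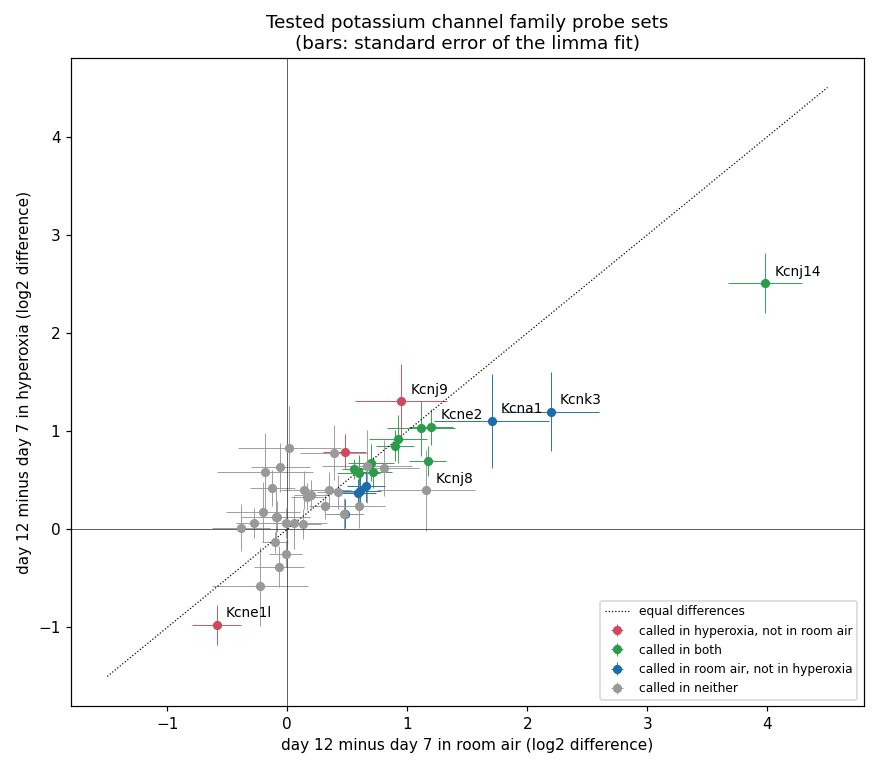
Log2 difference between day 12 and day 7 in room air (horizontal axis) and in hyperoxia (vertical axis) for the 47 tested probe sets; bars are standard errors of the limma fit, colours give the calls and the dotted line marks equal differences. Kcnj14, at 3.98 and 2.51, lies below the line, and Kcne1l is the called probe set in the lower left.

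Kcnj14 again had the largest rise, from 7.64, 8.25 and 7.68 at day 7 to 10.10, 10.23 and 10.76 at day 12 in hyperoxia, or 2.51 ± 0.30 (5.68-fold, adjusted p = 1.68e-05). Between them the arrays of day 8 were at 8.33, 8.60 and 7.90 and those of day 10 at 9.33, 9.62 and 9.42. Adjusted for the lens and pigment scores, the rise was 1.74. Kcne2 rose by 1.04 ± 0.18 (adjusted p = 0.000674), from 10.79, 10.55 and 10.46 to 11.77, 11.60 and 11.54. Kcnj9 rose by 1.30 ± 0.38 (adjusted p = 0.029), from 7.84, 7.23 and 7.10 to 8.96, 8.54 and 8.58, and was not called without replicate 2 or 3 of hyperoxia at day 7 (1.23 and 1.16) or replicate 3 of hyperoxia at day 12 (1.36). It was at the floor on 5 of the 24 arrays, and its call was lost with no filter on low values (adjusted p = 0.0582) and with the lens and pigment scores as covariates (1.05, adjusted p = 0.342).

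The single fall was that of Kcne1l, by 0.98 ± 0.21 in log2 units (adjusted p = 0.00322), from 11.15, 10.88 and 11.30 at day 7 to 10.32, 9.73 and 10.35 at day 12, without overlap. With the lens and pigment scores as covariates it differed by -0.84 and was not called (adjusted p = 0.137). In room air the same probe set was at 11.13, 10.86 and 10.84 at day 7 and at 10.43, 10.36 and 10.27 at day 12. The other genes called in hyperoxia were Kcnab1 (0.61 and 0.92), Kcnip2 (1.03), Kcnk1 (0.85), Kcnip4 (0.79), Kcnab2 (0.69), Kcnip1 (0.68), Kcnd2 (0.58) and Kcnc1 (0.57). The Kcnc1 call was lost in the limma fit with no filter (adjusted p = 0.0563). Kcnip4, a further partner of the A-type channels, was at 9.75, 9.73 and 9.85 at day 7 and at 10.45, 10.62 and 10.61 at day 12; in room air it differed by 0.48 ± 0.18 (adjusted p = 0.089). Kcnk3 differed by 1.20 ± 0.40 in hyperoxia (adjusted p = 0.0548) and Kcna1 by 1.10 ± 0.48 (adjusted p = 0.15). With the replicate number as a block, 15 members were called, Kcnk3 among them (adjusted p = 0.0451). The count of 13 called was 7 without replicate 3 of hyperoxia at day 12, where 681 of all probe sets tested rose and 817 fell. It was 3 with the lens and pigment scores as covariates: Kcnj14 (1.74), Kcne2 (1.04) and 1 probe set of Kcnab1 (0.56). Over all probe sets tested, 221 rose and 237 fell with these covariates, against 942 and 1051 without them. The member median was 0.36 with them and 0.40 without. Of the pigment epithelium genes themselves 4 of 7 rose from day 7 to day 12 in hyperoxia (median 1.42). Of the lens genes 0 of 14 were called (median 0.92). Their part in the lost calls was not tested.

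Whether hyperoxia changed the course with age was tested by subtracting the effect of hyperoxia at day 7 from the one at day 12. No member was called, and 0% of all probe sets were. Unadjusted p was under 0.05 for 2 members and for 982 of all 15838 probe sets. The lowest p among the members was that of Kcnj14, at -1.47 ± 0.43 (adjusted p = 0.642 in the limma fit). The second was that of Kcnab2 at -0.47 ± 0.22 (adjusted p = 0.784). An F test for a hyperoxia effect that varied over the 4 days called no member and 0% of all probe sets, with an unadjusted p under 0.05 for 2 members and 1039 probe sets; Kcnj14 had an adjusted p of 0.641 in it.

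Against room air at the same day, 0 of 47 members were called in hyperoxia at any of the 4 days or in their average. Over all probe sets tested, limma called 0.0631% at day 7, 0.0821% at day 8, 0.0631% at day 10, 0.0126% at day 12 and 0.492% in the average. An unadjusted p under 0.05 was found for 1, 1, 8, 3 and 10 members and for 503, 779, 1729, 1383 and 1416 of all probe sets, in the same order. The median difference over the members was 0.04, 0.07, -0.05, 0.00 and 0.02. In the average over days, the 95% confidence interval of all 47 members lay within a 2-fold difference in either direction. At the single days this held for 41, 36, 38 and 39 of the 47, so for the others these arrays leave room for a difference beyond 2-fold at that day.

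Kcnj14 had the lowest p at day 12, after 120 hours. The 3 hyperoxia arrays, at 10.10, 10.23 and 10.76, all lay below the 3 of room air, at 10.94, 12.01 and 11.80. The difference was -1.22 ± 0.30, with a 95% confidence interval from -1.85 to -0.58, and did not pass the test over all probe sets (adjusted p = 0.304). With each array of these groups left out it ranged from -1.54 to -1.004. At day 10 the conditions overlapped (-0.24). The summed signal of the photoreceptor markers overlapped between the conditions: it was between 238974.9 and 249099.1 in hyperoxia and between 241072.9 and 252518.1 in room air at day 12, and 6 of 12 were lower and 6 higher. Other lists differed in direction at this day, with 0 called in each. Endothelial markers were at negative differences for 9 of 9 (median -0.37), and pericyte and smooth muscle markers for 3 of 4 (median -0.41). Lens markers were so for 0 of 14 (median 1.02), with summed signals that overlapped (4763.2 to 261447.8 in hyperoxia, 2255 to 274457.1 in room air). Further medians were -0.01 for Müller, -0.01 for bipolar, 0.01 for pigment epithelium and -0.28 for progenitor markers. Adjusted for the lens and pigment scores, the Kcnj14 difference was -1.31 (adjusted p = 0.165), and the part of the vessel markers in it was not tested. At the same day Kcnab2 differed by -0.38 ± 0.16 (adjusted p = 0.515), with 11.54, 11.56 and 11.51 in hyperoxia against 11.88, 11.96 and 11.90. Kcna2, a delayed rectifier subunit, differed by 0.42 ± 0.19 (adjusted p = 0.535), with 9.61, 10.04 and 9.51 against 9.09, 9.31 and 9.49. Both pairs of groups were separate.

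At day 10, after 72 hours, Kcnj8 was at 7.52, 7.10 and 7.67 in hyperoxia and at 9.16, 8.95 and 7.82 in room air. The groups did not overlap, 1 of the 3 hyperoxia arrays was at the floor, and the difference of -1.22 ± 0.41 did not pass the test (adjusted p = 0.303). In the average over the days Kcnj8 differed by -0.55 ± 0.20 (adjusted p = 0.397). In the same average 3 of 9 endothelial genes (median -0.34, 8 negative) and 1 of 4 pericyte and smooth muscle genes (median -0.34, 3 negative) were called lower. Pericyte and smooth muscle markers were lower beside it at day 10: all 4 tested had negative differences, with a median of -0.42 and 0 called, and the summed signal of the 7 listed genes was between 6123 and 6624.5 against between 7960.9 and 11752.8. Of that list Anpep was at the floor on all arrays, Tagln on 15 and Myh11 on 17 of the 24. The sum is of linear intensities, so Rgs5, with a mean log2 intensity of 12.31, weighs most in it. Endothelial markers were lower at 9 of 9, with a median of -0.59 and 0 called, and a summed signal between 8272 and 9009.1 against between 10911 and 13477.4. The part of vessel cell number in the Kcnj8 difference was not tested.

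Also at day 10, Kcna2 was at 9.51, 9.01 and 9.60 in hyperoxia and at 8.67, 8.88 and 8.95 in room air, a difference of 0.54 ± 0.19 (adjusted p = 0.315). Kcnj6, the main neuronal G-protein-gated rectifier subunit, was at 8.73, 8.49 and 9.07 against 7.51, 8.16 and 8.07 at probe set 1425044_at, a difference of 0.85 ± 0.31 (adjusted p = 0.341). The arrays of each pair of groups were separate, and neither gene passed the test. In the average over days Kcna2 differed by 0.25 ± 0.09 (adjusted p = 0.399) and Kcnj6 by 0.38 ± 0.15 (adjusted p = 0.461). Without replicate 1 of room air at day 8, the Kcnj6 average was 0.52 and was called (adjusted p = 0.0212); it was then the single member called. The second Kcnj6 probe set averaged 0.06.

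At days 7 and 8, after 12 and 24 hours, no member passed the test. Kcna7 and Kcnk4, which had the lowest p at day 7 and at day 8, were each at the floor on 2 of the 24 arrays. Kcna7, a voltage-gated subunit best known from muscle, was at 7.63, 8.01 and 7.10 in hyperoxia and at 8.46, 8.74 and 9.05 in room air at day 7, a difference of -1.17 ± 0.40 (adjusted p = 1). At day 8 it differed by -0.77 ± 0.40 (adjusted p = 0.964) and the arrays overlapped, and at day 10 the difference was 0.55, of the opposite sign. Kcnk4, the mechanically gated two-pore channel TRAAK, was at 8.91, 9.08 and 8.49 in hyperoxia and at 8.21, 7.10 and 7.72 in room air at day 8, a difference of 1.15 ± 0.43 (adjusted p = 0.964). Kcnn2 and Kcna4 differed by -0.27 ± 0.14 and 0.29 ± 0.15 at day 7, and Kcnc1 by -0.34 ± 0.18 at day 8, with overlapping arrays for all 3.

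**Figure D4:**
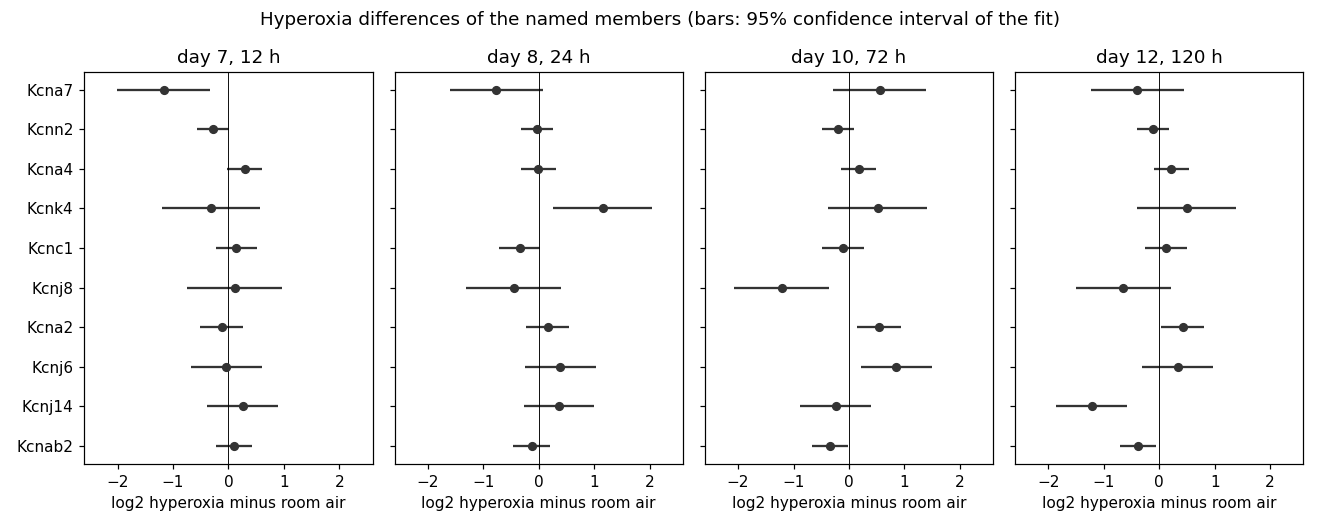
Log2 difference between hyperoxia and room air (horizontal axes) with its 95% confidence interval in the limma fit, for the 10 members with the lowest p in 1 of the single-day comparisons (rows), at days 7, 8, 10 and 12. None of them passed the test over all probe sets. Among the intervals below 0 are those of Kcna7 at day 7, Kcnj8 at day 10, and Kcnj14 and Kcnab2 at day 12. Among those above 0 are Kcnk4 at day 8, Kcnj6 at day 10, and Kcna2 at days 10 and 12.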

How the data were processed

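Each value in the deposited table is the linear intensity of 1 probe set on 1 array. Means after trimming 2% at each end lay between 1500.35 and 1500.4, so the authors had scaled the arrays to a common trimmed mean. The software is not given in the sources used here. Intensities were taken to log2, quantile normalized because the array medians spanned 0.253 (log2), raised to a floor at the 20th percentile (a signal of 137) and filtered at the 30th percentile of probe set means, which left 15838 probe sets; 1.51% of the tested member values were at the floor. The floor understates differences of dim probe sets. No probe set's level is set against that of another, except for its weight in a summed signal.

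Symbols come from the platform annotation; all 89 member probe sets matched a current gene identifier. Kcnv2, Kcnj13 and Kcnq1ot1 had no probe set with that single symbol and were not analysed here. Contrasts of 8 group means were fitted with limma 3.58.1 in R 4.3.3 over 24 arrays (16 residual and 3.54 prior degrees of freedom), with Benjamini-Hochberg adjustment over all 15838 and a call at an adjusted p under 0.05; the procedure was tested on simulated data. Errors are standard errors of the fit, with 3 arrays per group. Plots were made with matplotlib 3.10.9.

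Members, lists and tests were chosen with earlier results of these data known. The text names the 12 genes with the largest called rises in room air, up to 3 called rises and falls in the other age comparisons, the 3 members with the lowest p in each hyperoxia comparison, and Kcnj8, Kcnj9, Kcnj2, Kcna1, Kcnc1, Kcnk1, Kcnj14 and Kcnma1 whatever their values; others were chosen after their values were seen. Same-numbered arrays deviated together (correlations of 0.234 to 0.445 between conditions at day 12, 0.151 to 0.371 between days 12 and 7 in hyperoxia and 0.128 to 0.378 between days 10 and 8 in room air), but not in every pair at the other comparisons, down to -0.313, so the numbers do not pair the samples over the whole series. The alternatives were another scaling, floor, filter, variance prior and probe set per gene, fewer arrays, the replicate block, lens and pigment covariates, and each array left out.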

Additional observations from a re-analysis of the deposited data

How the results depend on the processing

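Over 12 counts of called members and 244 recalculations, 220 stayed within 1.5 times, or at 0 where the count was 0. The counts above 0 held less often. From day 7 to day 12, 13 of 17 recalculations held in room air and 14 of 17 in hyperoxia. In room air 11 of 17 held between days 8 and 10 and 8 of 17 between days 10 and 12. Of 640 recalculated differences of named members 591 kept direction and call, 45 lost the call, 4 gained one and 0 changed sign. For day 12 against day 7 in room air, 10 members were called in either direction with the filter at the 50th percentile (fewer probe sets tested). The count was 10 with the compared arrays alone, where 9 of the main calls remained and Kcne1l was called lower. It was 8 with lens and pigment covariates and ranged from 9 to 18 with each array left out. For day 12 against day 7 in hyperoxia the counts were 8 with the stricter filter, 3 with the covariates and 7 to 14 with an array left out. With the covariates, and with the compared arrays alone, calls over all probe sets tested also fell in both age comparisons. Between days 8 and 10 in room air they were 2 with the floor at the 30th percentile, 0 with the stricter filter, 0 with the compared arrays alone, 3 with the replicate block and 0 to 3 with an array left out; between days 10 and 12 they were 0 with no filter, 0 with the stricter filter, 0 with the compared arrays alone, 0 without the 2 farthest arrays, and 0 to 1 with an array left out. For the average hyperoxia effect, 1 member was called without the 2 farthest arrays (Kcnj6, 0.51) and 0 to 1 with an array left out. Only 19 members passed the stricter filter, and Kcnj14 was not among them, so it could not be called there in either step. The cause of the other changes was not tested. Removing the 2 farthest arrays was chosen after seeing the data. The replicate block gave 17 and 15 called members for the age comparisons in room air and hyperoxia; beyond the calls named in the report it added Kcnip3 (adjusted p = 0.0374) in room air and the second probe set of Kcnip4 (adjusted p = 0.0406) in hyperoxia. The number of arrays, 3 per group, and the floor limit the precision for dim members.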
